A study of Mus musculus with 5 samples.

Results

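The 300 widest merged acetylated regions of CD8+ memory T (TM) cells were selected by merged width from the ChIPseq peak lists of 5 libraries, out of 10248 autosomal regions with a peak in 2 or more libraries and 18410 merged regions in all. Peaks that shared 1 bp or more were merged across libraries, the first 3.1 Mb of chromosome 9 was left out, and the regions were ranked by the distance from the first to the last base. The libraries were 2 WT and 3 TPdh-/- samples of CD8+ cells, from male and female adult mice. OT-I T cells, which carry a T cell receptor for an ovalbumin peptide, were activated with that peptide and then cultured with IL-15. TPdh-/- mice came from a cross of B6.129P2-Pdha1tm1ptl/J mice, with a floxed Pdha1 gene, to CD4-Cre mice, so that the deletion is driven by the Cd4 promoter and reaches CD4+ and CD8+ T cells alike. Chromatin was precipitated with the antibody AB1191 against acetylated histones, for which the labels give acetyl K18. The study's figure legend gives 4 samples per condition, and nothing in the labels says whether the 5 libraries analysed here came from separate mice. The labels give a sequencing aim of at least 37000000 reads, but the peak lists hold no read counts, and the depth behind each region is therefore unknown.

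Acetylation of histone lysines neutralises their positive charge, loosens the contact between histone and DNA and recruits bromodomain proteins, and it marks active promoters and enhancers. Most acetylated sites span a few nucleosomes. Unusually wide domains are known from genes that define a cell's identity, from clusters of enhancers and from the first part of highly transcribed genes. The acetyl group comes from acetyl-CoA, which the pyruvate dehydrogenase complex makes from pyruvate in mitochondria, and Pdha1 encodes a subunit of its first enzyme.

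The sequences of 6 stretches are examples of DNA in the widest regions. They include CpG-poor sequence away from promoters and CpG-rich sequence before a start site. The Pim1 stretch comes from a region that holds the Pim1 start, and the Sfi1 stretch from a region with 57.1% repeat-masked bases. The Tnfaip3 and Sfi1 stretches are named by the nearest coding start, 151816 and 82680 bp from their regions. Each of the 6 stretches is 200 bases of GRCm38. For the Elf1, Jak1, Tnfaip3, Pim1 and Sfi1 regions, the bases lie at the middle of the run covered by the largest number of libraries found there, which was 2 at Elf1, and are read on the plus strand. The Junb stretch, on the minus strand, lies just before the annotated start of the gene. Capitals mark matches on either strand to AP-1 (TGANTCA), STAT (TTCNNNGAA), RUNX (TGTGGT) or ETS (AGGAAG) letters. The stretches lie at chr14:79520246-79520445 (Elf1), chr4:101186091-101186290 (Jak1), chr10:19171490-19171689 (Tnfaip3), chr17:29489874-29490073 (Pim1), chr8:84978719-84978918 (Junb) and chr11:3102460-3102659 (Sfi1).
Elf1 region: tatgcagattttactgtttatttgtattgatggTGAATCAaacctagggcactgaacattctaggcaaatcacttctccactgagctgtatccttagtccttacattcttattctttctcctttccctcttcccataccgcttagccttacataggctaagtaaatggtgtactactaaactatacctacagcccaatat
Jak1 region: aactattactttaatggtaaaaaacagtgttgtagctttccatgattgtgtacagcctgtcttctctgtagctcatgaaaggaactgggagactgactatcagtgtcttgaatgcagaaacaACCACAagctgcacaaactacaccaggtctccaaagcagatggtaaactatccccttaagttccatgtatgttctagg
Tnfaip3 region: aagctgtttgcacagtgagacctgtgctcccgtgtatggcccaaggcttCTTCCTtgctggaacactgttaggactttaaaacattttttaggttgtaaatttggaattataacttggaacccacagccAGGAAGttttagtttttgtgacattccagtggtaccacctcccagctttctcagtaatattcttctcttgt
Pim1 region: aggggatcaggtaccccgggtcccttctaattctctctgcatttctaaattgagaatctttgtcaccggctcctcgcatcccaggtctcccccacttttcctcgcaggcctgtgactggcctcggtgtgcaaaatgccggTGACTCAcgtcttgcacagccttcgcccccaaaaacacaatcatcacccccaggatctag
Junb, before the start: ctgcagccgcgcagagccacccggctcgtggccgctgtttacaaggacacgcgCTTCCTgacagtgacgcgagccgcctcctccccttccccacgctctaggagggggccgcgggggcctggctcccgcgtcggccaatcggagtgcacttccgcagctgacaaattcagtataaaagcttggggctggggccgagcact
Sfi1 region: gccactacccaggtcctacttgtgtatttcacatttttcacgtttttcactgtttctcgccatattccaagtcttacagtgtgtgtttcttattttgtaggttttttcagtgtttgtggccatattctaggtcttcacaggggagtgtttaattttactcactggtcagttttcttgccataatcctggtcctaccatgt

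The Elf1, Jak1 and Tnfaip3 stretches held 1, 0 and 1 CpG in 200 bases, the Sfi1 stretch held 2 and the Pim1 stretch 8, against 19 before the Junb start. The Elf1 and Pim1 stretches each held 1 AP-1 match, and the Jak1 stretch 1 RUNX match. The Tnfaip3 stretch held 2 ETS matches and the Junb stretch 1. These stretches are examples and do not give the shares over the 300 regions. In each of the 300 regions, 200 bases were taken at the middle of the longest run covered by the most libraries there. An AP-1 match was present in 7.33% of these windows, a STAT match in 7.0%, a RUNX match in 16.7% and an ETS match in 32.7%. In windows taken in the same way in all 10248 regions, the shares were 4.85%, 6.01%, 14.1% and 31.0%. Among regions with no protein-coding start site inside, the AP-1 letters were in 9.94% of 171 wide and in 6.45% of 5191 other windows. These are descriptions of letters in short windows and were not tested.

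The merged width of the 300 regions ran from 3090 to 6430 bp with a median of 3462 bp, against a median of 1407 bp over the 9948 other regions. The width chose the regions, so this is a description. The 2 narrowest of the 300 were 3091 bp, at a site 23164 bp from the nearest coding start, that of Sfrp2, and 3090 bp, at S100a3. The next 2 regions, just outside, were 3088 bp, with Zfp36l2 nearest at 4725 bp, and 3087 bp, at Foxn2. The boundary thus falls in a gradual decline. The 300 regions summed to 1.08 Mb, which was 6.79% of the width of all 10248.

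Merging added little to the width. In the median region, 1 peak of 1 library spanned 98.6% of the merged width, and in 110 of the 300 it was the whole region. The widest single peak spanned 90% or more in 249 regions and under 75% in 9. The library with the largest covered width was WT replicate 1 in 217 regions, WT replicate 2 in 33, TPdh-/- replicate 3 in 38, and TPdh-/- replicates 1 and 2 in 8 and 4. Of the other regions, 75.1% had their largest covered width in WT replicate 1, against 72.3% of the 300. WT replicate 1 also had the longest peak list, with 15962 peaks, where the other libraries had from 4920 to 9418. When WT replicate 1 was left out, the 300 widest regions had a median of 2994 bp and overlapped 174 of the original 300. Leaving out any other library kept an overlap with 257 to 291 of them.

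**Figure D1:**
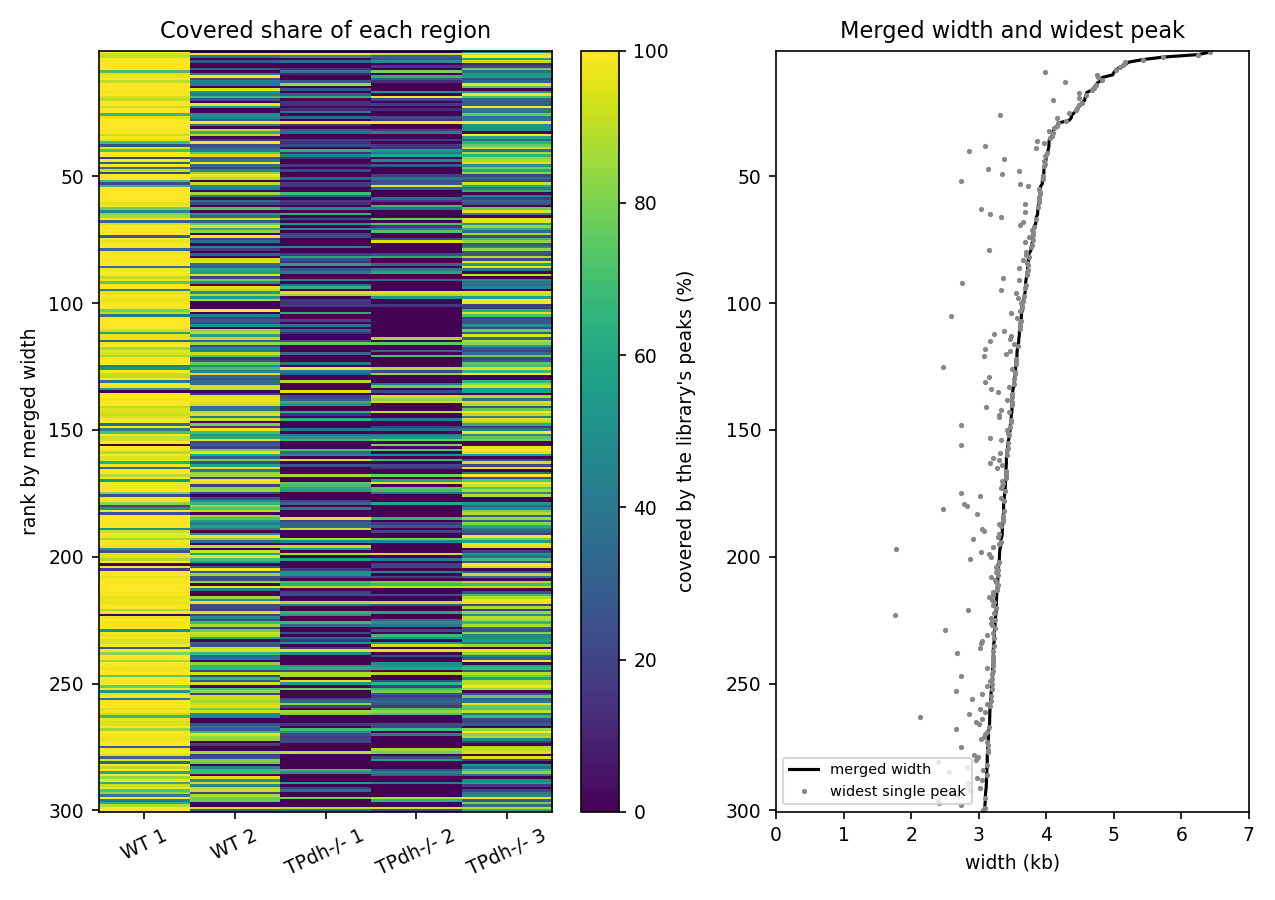
Left, share of each region covered by each library's own peaks, in percent by colour, with the 300 regions ordered by merged width from the top. Right, merged width (line) and widest single peak (points) in kb for the same ranks. WT replicate 1 covered nearly the whole of most regions, and in 249 regions 1 peak reached 90% or more of the merged width.

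The widest region of all, 6430 bp at chr14:79515839-79522268, lay inside Elf1, which encodes an ETS family transcription factor of lymphocytes, 153 bp from an annotated coding start. WT replicate 1 covered all 6430 bp with 1 peak. TPdh-/- replicate 3 covered 3090 bp with 2 peaks of 609 and 2481 bp, and the other 3 libraries had no peak. One library of each genotype thus marked this region.

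The fourth widest, 5428 bp at chr4:101182938-101188365, lay inside Jak1, the kinase that binds the receptors of IL-15 and related cytokines, 76908 bp from the nearest coding start. WT replicate 1 covered 5428 bp, TPdh-/- replicates 2 and 3 covered 1459 and 3132 bp, and WT replicate 2 and TPdh-/- replicate 1 had no peak there. The sixth, 5166 bp inside the palmitoyltransferase gene Zdhhc18, was covered over 5143 bp in WT replicate 1 and 626 bp in TPdh-/- replicate 3 alone. At both, the WT libraries differed, with no peak in WT replicate 2.

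Of the 20 widest regions, 8 held a protein-coding start site. The third, 5730 bp at chr1:88211435-88217164, held the start of Ugt1a1, which conjugates bilirubin. Ugt1a1 shares its later exons with the other Ugt1a genes, so the signal cannot be given to 1 of them. The covered widths there were 5205 and 2136 bp for WT and 2763, 1738 and 5723 bp for TPdh-/- replicates 1, 2 and 3. TPdh-/- replicate 3 thus had the widest cover and the groups overlapped.

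The region of Zc3h12a, 4834 bp at chr4:125123027-125127860, was the widest of those with a coding start at which both WT libraries covered over 90%. Zc3h12a encodes the RNase Regnase-1, which degrades cytokine transcripts and restrains T cell activation. WT replicates 1 and 2 covered 4690 and 4771 bp, TPdh-/- replicates 2 and 3 covered 3131 and 2617 bp, and TPdh-/- replicate 1 had no peak. Both WT libraries lay above the 3 TPdh-/- libraries.

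The region of Junb, a subunit of the AP-1 transcription factor, was 4708 bp at chr8:84975058-84979765. It was covered over 4708 bp in WT replicate 1 and 3471 bp in TPdh-/- replicate 3, and the other 3 libraries had no peak. The region of Slamf6, a receptor of the signalling lymphocyte activation family, was covered over 4831 and 1149 bp in the WT pair and over 0, 1455 and 1120 bp for TPdh-/- replicates 1, 2 and 3. WT replicate 1 was the single library with a wide peak at Slamf6.

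Other genes of the 20 widest were Vps37b, a subunit of the endosomal ESCRT-I complex, Sh2b1, an adaptor of receptor kinases, Ipcef1, and the pair Slc37a3 and Rab19. At Vps37b the covered widths were 5031 and 1632 bp for WT and 771, 0 and 3925 bp for TPdh-/- replicates 1, 2 and 3. At Sh2b1 they were 4755 and 2004 bp for WT and 525, 0 and 2726 bp. At Ipcef1 they were 4732 and 1902 bp for WT and 4012, 0 and 4563 bp for TPdh-/-. The groups overlapped at all of these, since TPdh-/- replicate 3 lay above WT replicate 2.

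**Figure D2:**
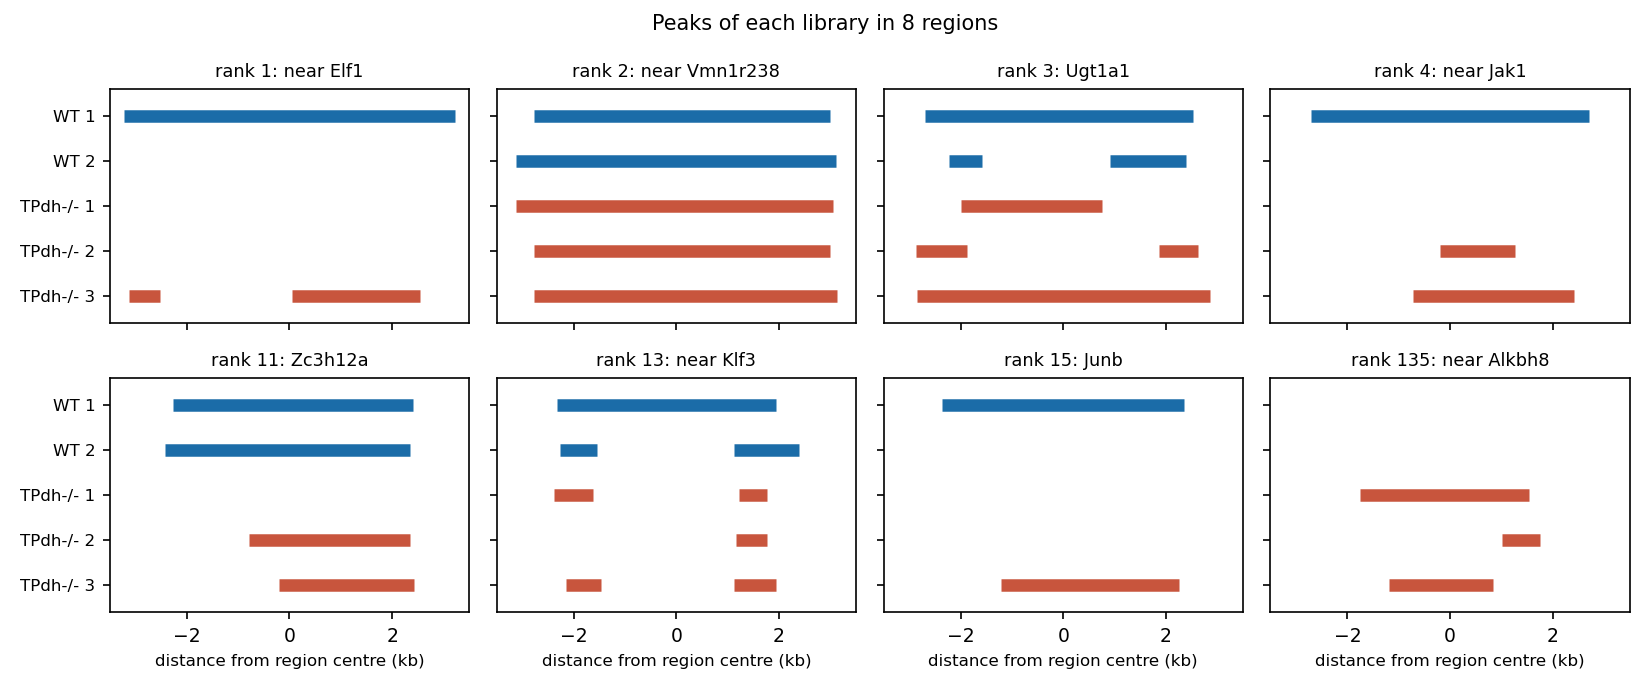
Peaks of each library (bars, blue WT, red TPdh-/-) in 8 of the 300 regions, by distance from the region's centre in kb. A single WT replicate 1 peak spans the Elf1, Jak1 and Junb regions, the region near Vmn1r238 is spanned in all 5 libraries, and the region near Klf3 is split into 2 peaks in 3 libraries.

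Splitting into shorter peaks was rare. A library had 2 separate peaks in 15 of the 1127 combinations of region and library with a peak, which is 1.33%, and never more than 2. These lay in 11 of the 300 regions, or 3.67%, against 0.107% of all 10248, and none lay in the other regions. The width used by the choice fixes this contrast. The smallest gap between any pair of peaks of a library was from 2102 to 2354 bp, so a region had to be about as wide as the narrowest of the 300 to hold 2. In the 15 cases the gap was from 2146 to 3757 bp with a median of 2528 bp.

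The region split in most libraries was the thirteenth widest, 4766 bp at chr5:64861363-64866128. The nearest coding start, 34554 bp away, was that of Klf3, a transcriptional repressor of lymphocytes. WT replicate 1 covered 4275 bp of it with 1 peak. WT replicate 2 had peaks of 711 and 1256 bp, TPdh-/- replicate 1 of 756 and 547 bp, and TPdh-/- replicate 3 of 685 and 821 bp, with gaps of 2674, 2843 and 2590 bp, while TPdh-/- replicate 2 had 1 peak of 598 bp. The same 2 ends were thus marked in libraries of both genotypes.

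At Ugt1a1, WT replicate 2 had peaks of 657 and 1479 bp and TPdh-/- replicate 2 of 981 and 757 bp, where the other 3 libraries had 1 peak each. In the region of 5219 bp inside Sfi1, a centrosome gene, TPdh-/- replicates 1 and 2 were split and the other libraries were not. At Sh2b1 the split was in TPdh-/- replicate 3, with peaks of 1972 and 754 bp. WT replicate 1 was split at 4 regions, at Zfp169 with A830005F24Rik, Rabggta, Thtpa and Nr1d1. A single peak of WT replicate 2 covered 3980, 3329 and 3243 bp at the first 3, and 1 of TPdh-/- replicate 3 covered 3146 bp at Nr1d1. Thtpa and Nr1d1 were named after their values were seen.

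For each library, the 300 widest regions were chosen anew from the other 4, so that the library measured took no part. Covered shares of these regions were then 81.2% and 48.5% in WT replicates 1 and 2, and 22.7%, 23.7% and 53.1% in TPdh-/- replicates 1, 2 and 3. The mean of the WT libraries was 64.9 ± 23.1% (SD, n = 2) and that of the TPdh-/- libraries 33.1 ± 17.3% (SD, n = 3), a difference of 31.7 percentage points (exact permutation test over libraries, two-sided, p = 0.4, and 0.4 after Benjamini-Hochberg adjustment over the 3 tests). The groups overlapped, since TPdh-/- replicate 3 lay above WT replicate 2. With every list cut to the 4920 peaks of the shortest, the difference was 2.90 percentage points. The libraries were measured on unlike sets of regions. The set for WT replicate 1 had a median width of 2994 bp, and those for the others from 3354 to 3437 bp. WT replicate 1 also took part in the choice for each of the other 4 libraries. How this bears on the difference was not tested. With 2 libraries against 3, the smallest two-sided p is 0.2, which is above 0.05.

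In each library, regions that were wide in the other 4 were also covered more widely where a peak was called. The median covered width was 2747 and 2065 bp for WT and 1370, 1602 and 2117 bp for TPdh-/- replicates 1, 2 and 3. Over the remaining regions of the other 4 libraries it was 1182 and 1020 bp for WT and 866, 912 and 1062 bp for TPdh-/-. The wide regions were higher in 5 of 5 libraries. A wide region allows a wider cover, and the shares of width covered were lower in the wide regions in 5 of 5 libraries, 81.2% against 90.1% in WT replicate 1 and 22.7% against 28.4% in TPdh-/- replicate 1.

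**Figure D3:**
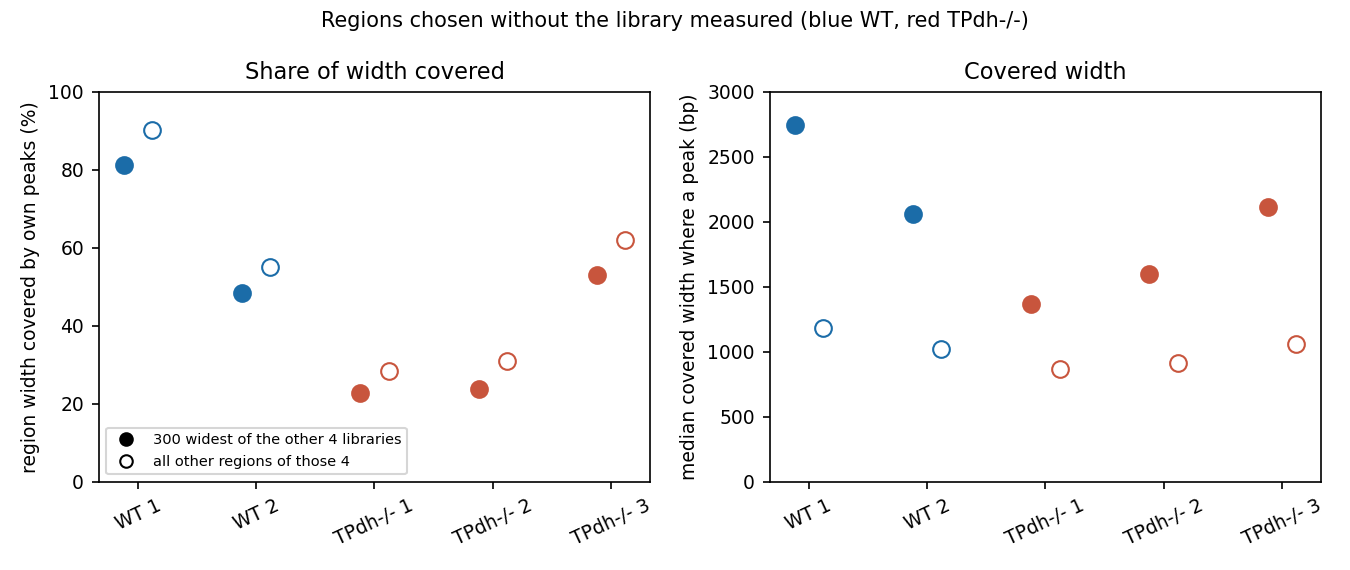
Share of width covered in percent (left) and median covered width in bp where a peak was called (right) for each library, in the 300 regions that were widest in the other 4 libraries (filled) and in their remaining regions (open). TPdh-/- replicate 3 lies beside WT replicate 2, and in all 5 libraries the wide regions have the lower share and the larger covered width.

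The regions chosen without the library measured were split in 3 and 2 cases in WT and in 2, 2 and 4 in TPdh-/- replicates 1, 2 and 3. The mean number of peaks per region with a peak differed by -0.00485 between WT and TPdh-/- (exact permutation test, two-sided, p = 0.2, adjusted 0.3), a difference made by 13 splits in all. The fold enrichment of the authors, which MACS2 averages over a broad peak, was lower in peaks of the 300 regions than over all autosomal peaks of the same library. The medians were 1.91 against 2.40 and 2.04 against 2.54 in WT. In TPdh-/- replicates 1, 2 and 3 they were 2.18 against 2.65, 2.12 against 2.58 and 2.00 against 2.48. On the log2 scale this was -0.32 ± 0.00679 for WT (SD, n = 2) and -0.29 ± 0.0159 for TPdh-/- (SD, n = 3). The genotypes differed by -0.03 over these regions, which each library helped choose (exact permutation test, two-sided, p = 0.2, adjusted 0.3). In regions chosen from the other 4 libraries, the values were -0.27 and -0.32 for WT replicates 1 and 2, and -0.28, -0.30 and -0.31 for TPdh-/- replicates 1, 2 and 3. The groups overlapped, with a difference of -0.00428 (exact permutation test, two-sided, p = 1, a comparison added after the data were seen). Peaks of wide regions thus had the lower fold in all 5 libraries. The highest fold in any of the 300 regions was 3.68, at Gtpbp6 and Zfp605 in TPdh-/- replicate 2.

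Of the 300 regions, WT replicates 1 and 2 had a peak in 296 and 251, or 98.7% and 83.7%, and TPdh-/- replicates 1, 2 and 3 in 160, 150 and 270, or 53.3%, 50.0% and 90%. Of the other regions, the same libraries had a peak in 98.5%, 77.1%, 44.5%, 47.2% and 83.4%. All 5 libraries had a peak in 92, which is 30.7%, against 30.0% of all 10248 regions, and the share of the 300 was thus near that of the whole. With all lists cut to the length of the shortest, it was 52.0% against 36.1%. The WT pair alone had a peak in 16, or 5.33%, against 10.3%. After the pattern of all 5 libraries, the most frequent was both WT libraries with TPdh-/- replicate 3, in 53 regions. These 3 libraries with TPdh-/- replicate 1 followed in 42, and with TPdh-/- replicate 2 in 35. The shares were 17.7%, 14.0% and 11.7%, against 15.8%, 8.34% and 9.44% of all regions. WT replicate 1 and TPdh-/- replicate 3 alone had a peak in 22, or 7.33%, against 13.3%. Both WT libraries covered more than each TPdh-/- library in 112 regions, or 37.3%, against 34.1% of all regions. The opposite was seen in 2, or 0.667%, against 0.146%.

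The widest regions marked in the WT pair alone were ranked 66, 90 and 95. The first lay inside Tapt1 and was covered over 3325 and 1282 bp in WT replicates 1 and 2. The second, with Gm10073 nearest at 8989 bp, was covered over 3356 and 730 bp. The third held the start of Rabggta, a subunit of the enzyme that attaches lipid anchors to Rab proteins, and was covered over 1545 and 3329 bp. A peak was not called in any TPdh-/- library at these, and signal below the authors' threshold is not seen in peak lists.

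Regions with no WT peak and at least 2 TPdh-/- libraries numbered 2. One, 3504 bp at chr9:3311820-3315323, with Alkbh8 nearest at 19817 bp, was covered over 3292, 741 and 2025 bp for TPdh-/- replicates 1, 2 and 3. Repeat-masked bases made up 92.4% of it. The other, 3289 bp at chr1:85277595-85280883, with C130026I21Rik nearest at 7029 bp, was covered over 597 and 3289 bp in TPdh-/- replicates 2 and 3, and 41.4% of its bases were repeats. How repeats bear on these was not tested. A peak in TPdh-/- replicates 1, 2 and 3 alone was seen in 0.333% of the widest regions, against 0.0488% of all regions. A peak in TPdh-/- replicates 2 and 3 alone was seen in 0.333%, against 0.215%. Each share of the widest regions rests on 1 region, and these shares were not tested.

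In the 92 regions with a peak in all 5 libraries, the longest stretch covered by all of them had a median of 1066 bp, 30.7% of the region. The other 2978 regions with a peak in all 5 had a median of 732 bp, 48.9% of the region. In 6 of the 92, or 6.52%, no base was covered by all 5, against 8 of the 2978, or 0.269%. The medians include these regions, where the stretch was covered by fewer libraries. The shared stretch of wide regions was thus longer in bases and smaller as a share.

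Protein-coding start sites lay inside 129 of the 300 regions, or 43.0%, against 47.7% of all regions, with GENCODE M21 as the annotation. A single coding gene started in 107 regions, or 35.7%, against 41.1% of the other regions. A pair of genes on opposite strands started in 22, or 7.33%, against 6.24%. The nearest coding start was outside but within 3000 bp in 24 regions, or 8.0%, against 7.55%, and over 100 kb away in 14, or 4.67%, against 5.82%. No coding start was inside 83 regions within the span of a coding gene, or 27.7% against 28.1%, and 88 outside coding genes, or 29.3% against 24.0%. Introns made up 50.3% of the bases of the 300 regions, intergenic sequence 36.1%, UTRs 5.34% and coding sequence 3.21%. In the other regions these shares were 46.9%, 31.0%, 10.6% and 4.47%.

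Where 1 coding gene started inside, the region reached a median of 1543 bp upstream and 2118 bp downstream of the start. It reached further downstream in 60 of 107, or 56.1%, against 69.6% of 4088 other regions. At the start itself, 89.7% and 43.0% of the 107 regions were covered in WT replicates 1 and 2 and 22.4%, 26.2% and 67.3% in TPdh-/- replicates 1, 2 and 3. At 1000 bp downstream the shares were 57.9% and 27.1% in WT and 14.0%, 12.1% and 40.2% in TPdh-/-. All 5 libraries were highest at 100 or 200 bp downstream of the start, and differed in level more than in position.

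**Figure D4:**
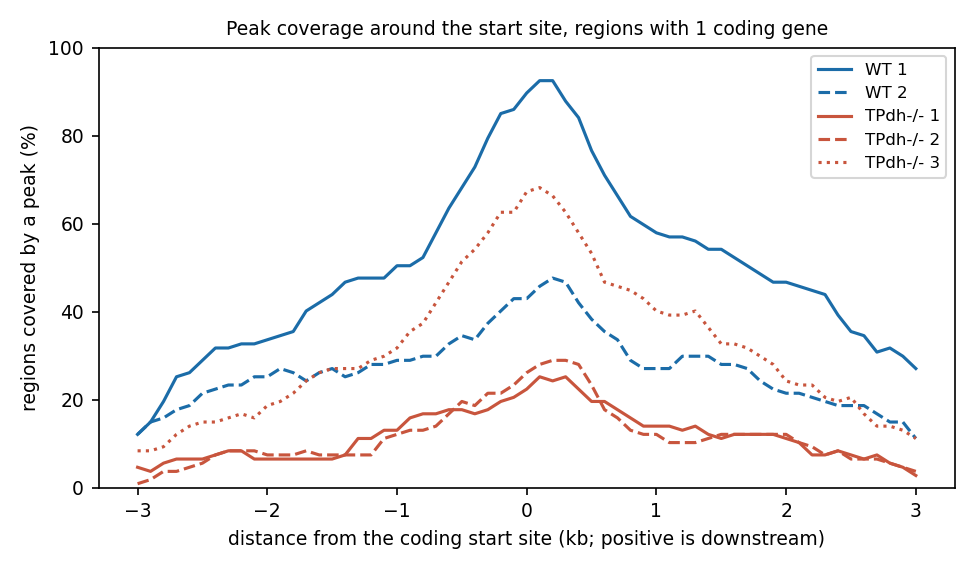
Share of the 107 regions with a single coding start that are covered by a peak, in percent, by distance from the start in kb (positive is downstream), for WT (blue) and TPdh-/- (red) libraries. All 5 curves are highest within 200 bp downstream of the start, at 92.5% in WT replicate 1 and 25.2% in TPdh-/- replicate 1.

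The pairs of genes with starts on opposite strands included the eighteenth widest region, at Slc37a3 and Rab19, a member of a sugar phosphate transporter family and a small GTPase. The covered widths there were 4590 and 2021 bp for WT and 1376, 0 and 4510 bp for TPdh-/- replicates 1, 2 and 3. The region of Zfp169 and A830005F24Rik was covered over 1104 and 3980 bp in WT, over 3785 bp in TPdh-/- replicate 3 and not in the other TPdh-/- libraries. The region of Taf8, a subunit of the general factor TFIID, and Ccnd3, the D-type cyclin of lymphocyte proliferation, was covered over 3883 bp in WT replicate 1 and 2642 bp in TPdh-/- replicate 2 alone. At none of these did both WT libraries lie above all TPdh-/- libraries.

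The 300 regions held fewer CpG for their width than the rest where a coding start lay inside. With a coding start inside, the ratio of observed to expected CpG had a median of 0.49 in 129 wide regions and 0.72 in 4757 others. With none inside, it was 0.22 in both sets. Median GC content was 48.1% against 52.1% over all of either set. Repeat-masked bases made up a median of 19.2% of the wide and 11.8% of the other regions, and were higher in the wide ones both with a coding start (17.5% against 8.25%) and without one (20.9% against 16.6%). The part of region width in these values was not tested.

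**Figure D5:**
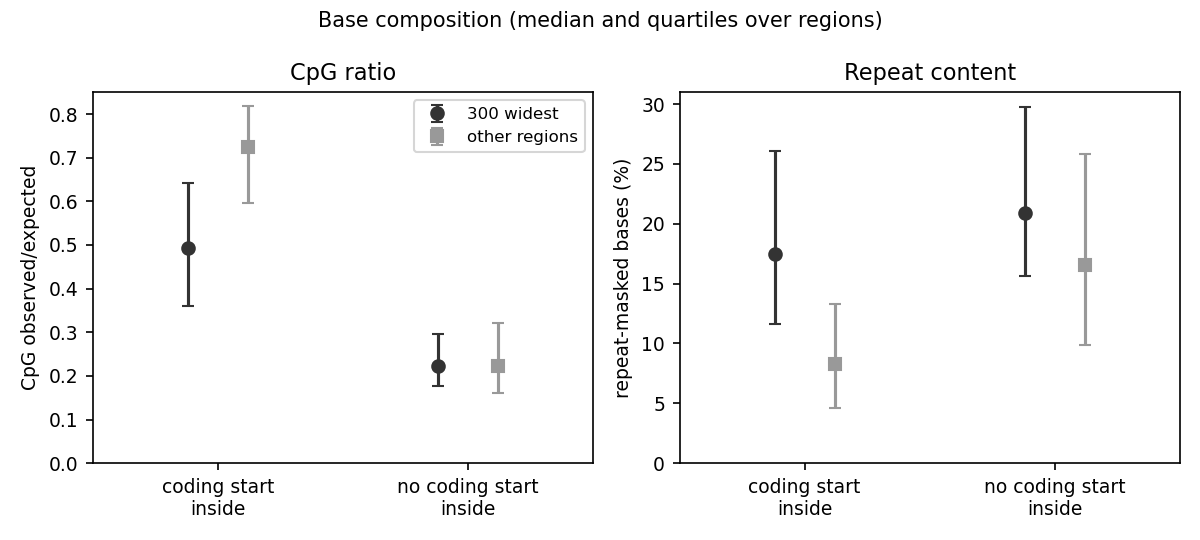
Ratio of observed to expected CpG (left) and repeat-masked bases in percent (right), as medians with quartiles over regions, for the 300 widest (dark circles) and the other regions (grey squares) with or without a coding start inside. The CpG ratio of wide promoter regions, 0.49, lies between that of other promoter regions, 0.72, and that of regions with no coding start, 0.22.

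Protein-coding genes that started inside the 300 regions numbered 151, which was 2.75% of the 5491 with a start in any of the 10248 regions. Of all autosomal protein-coding genes, 0.727% started in a wide region and 26.4% in any of the 10248. At such a low share, a count of 0 in a short list says little. The lists also hold genes of chromosome X, such as Foxp3, Cd40lg and Syp, which the rule leaves out. From the lists of genes, 2 of 21 T cell receptor-induced genes started in a wide region, 2 of 17 IL-15 and JAK-STAT5 genes, 1 of 18 homing and adhesion genes and 1 of 20 ubiquitously expressed genes. None of the 20 T cell identity genes did, though 14 of them started in one of the 10248 regions. None of 16 memory-associated transcription factors, 20 effector-associated genes, 18 pyruvate dehydrogenase and acetyl-CoA genes, or 18 histone acetyltransferases and deacetylases started in a wide region, where 6, 8, 9 and 10 of them started in any region. Of the markers of other cells, 0 of 12 B cell, 1 of 14 myeloid, 1 of 14 CD4 T cell and NK cell and 0 of 20 other-tissue genes started in any of the 10248 regions, and none in a wide one.

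The T cell receptor-induced genes were Junb and Jund, both subunits of AP-1. Jund was covered over 2476 and 2431 bp for WT and 3434 bp in TPdh-/- replicate 3, and not in the other TPdh-/- libraries. The IL-15 and JAK-STAT5 genes were Pim1, a survival kinase induced by STAT5, and Bcl2, an inhibitor of apoptosis that sustains memory T cells. Pim1 was covered over 2839 and 3967 bp for WT and 541, 0 and 2610 bp for TPdh-/- replicates 1, 2 and 3, so that both WT libraries lay above all TPdh-/- libraries. Bcl2 was covered over 3065 and 2117 bp for WT and 2110, 796 and 2165 bp for TPdh-/-, and TPdh-/- replicate 3 lay above WT replicate 2.

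Selplg, the ligand of selectins on T cells, was covered over 2101 and 3233 bp for WT and 527, 0 and 993 bp for TPdh-/- replicates 1, 2 and 3. Actb, a cytoskeletal actin, was covered over 3724 and 2244 bp for WT and 947, 1556 and 1493 bp for TPdh-/-. Both WT libraries were above all TPdh-/- libraries at either gene. Of the 6 list genes, 3 had this order, where 34.1% of all regions had it.

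Several listed genes had a wide region nearby that did not hold their start, and these were named after the values were seen. Bach2, a repressor that maintains resting lymphocytes, had 2 within its span, 9687 and 49448 bp from the nearest coding start. The nearer was covered over 3498 and 3347 bp for WT and 676, 3241 and 3051 bp for TPdh-/- replicates 1, 2 and 3, and the farther over 4046 and 3632 bp for WT and 1342, 837 and 2099 bp. Both WT libraries lay above all TPdh-/- libraries at either Bach2 region.

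A region 151816 bp from Tnfaip3, the inhibitor of NF-kappaB signalling A20, was covered over 5092 bp in WT replicate 1, over 824 and 1055 bp in TPdh-/- replicates 2 and 3, and not in WT replicate 2 or TPdh-/- replicate 1. One inside Lef1, a transcription factor of naive and memory T cells, was covered over 841 and 3345 bp for WT and 3331 bp in TPdh-/- replicate 3 alone. One 161982 bp from Bcl6 was covered over 1479 and 739 bp for WT and 3138 bp in TPdh-/- replicate 3 alone. These distal regions had no common order of the libraries.

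One 206 bp from a Foxp1 start was covered over 3974 and 1358 bp for WT and 632, 1154 and 2078 bp for TPdh-/-. One 38574 bp from Cd69, an early activation and residency marker, was covered over 3216 and 3000 bp for WT and 2978, 0 and 3168 bp for TPdh-/- replicates 1, 2 and 3. WT and TPdh-/- overlapped at Foxp1 and Cd69. The nearest gene is a matter of distance, and no link between these regions and the genes was measured.

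Within 50 kb of another of the 300 were 41 regions, or 13.7%, in 19 stretches, 18 of them pairs. Of the next 300 regions by width, 18, or 6.0%, lay as near another of those 300. This was not tested. Pairs lay at Slamf6, Bach2, Klf13, Chd2, Arid5b and Pim1, among others, named after their positions were seen. The longest stretch held 5 regions at chr11:3100503-3180241 and summed to 20732 bp of merged width. The nearest coding start to each was that of Sfi1, up to 82680 bp away.

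Regions before 3.5 Mb of a chromosome, where the assembled sequence begins next to the centromere, numbered 11, or 3.67% of the 300, against 0.563% of the other regions. In 8 of the 300, over 50% of the bases were repeats, or 2.67% against 1.43%. At the first of the Sfi1 stretch, 57.1% repeat, the 5 libraries covered 4172, 4162, 4101, 4105 and 4153 of 4173 bp. Another there, 73.7% repeat, was covered over 3218, 3057, 3061, 3055 and 3102 of 3218 bp. These 2 had nearly the same cover in all 5 libraries. The other 3 of the stretch did not. One of 3546 bp was covered over 1727 and 2504 bp for WT and over 3495, 3162 and 3368 bp in TPdh-/- replicates 1, 2 and 3, so that all TPdh-/- libraries lay above both WT libraries. One of 5219 bp was covered over 5163, 1453, 1840, 2574 and 4799 bp, and one of 4576 bp over 4323, 3160, 2908, 4479 and 3217 bp.

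The second widest region of all, 6255 bp near the start of chromosome 18, was covered over 5784 and 6246 bp for WT and 6170, 5769 and 5909 bp for TPdh-/- replicates 1, 2 and 3. The nearest coding gene, the pheromone receptor gene Vmn1r238, was 112874 bp away, and 43.7% of the bases were repeats. In all, 9 of the 300 regions, or 3.0%, were covered over more than 80% in every library, against 1.22% of the other regions. Of the 9, 3 were those just described. The others included those at Oaz1, Mus81 with Cfl1 and Samd10 with Prpf6, which held a coding start. At Oaz1, an inhibitor of polyamine synthesis, the covered widths were 3275 and 3182 bp for WT and 2923, 2964 and 2967 bp for TPdh-/-. These were named after their values were seen.

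Pdha1 itself lies on chromosome X and so outside the choice of regions. A peak of 2699 bp lay within 3000 bp of it in WT replicate 1, and the other 4 libraries had none there. Peak lists do not measure the deletion.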

How the data were processed

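ChIPseq of acetylated histones in 2 WT and 3 TPdh-/- libraries of TM cells was analysed from peak lists. The authors checked reads with FastQC 0.11.9, aligned them with BWA-mem 0.7.17 to GRCm38/mm10, used SAMtools 1.15.1 to drop reads that mapped to several places or to blacklisted sequence, and called broad peaks in each library separately with MACS2 2.2.6. An input control is not given in the sources used here. The deposited lists hold peak positions, a fold enrichment (a ratio on a linear scale) and, for each peak, a −log10 p and a −log10 q. Dropping such reads thins repeats, which can shorten or break peaks there. The stated aim was at least 37000000 reads of 51 bases, but the lists hold no read counts per library or peak, so no counting interval is given.

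Peaks that shared 1 bp were merged with Python 3.11.15, numpy 2.4.6 and pandas 2.3.3, and bedtools 2.31.1 gave the same 18410 regions. Merged regions, covered width and peak counts were checked on simulated data, where 2000 of 2000 regions were recovered. Genes came from GENCODE M21, bases and repeats from the GRCm38 reference. A covered width is the number of bases of a region under a library's own peaks.

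Groups came from the sample titles. Exact permutation tests used the 10 ways of taking 2 of 5 libraries, two-sided as double the smaller one-sided p. P-values measure only the spread between these libraries, which may be technical. Genes named are those with a coding start in the 20 widest regions or, from 13 gene lists, in any of the 300, then the widest regions with no coding start, the most split, those of 1 genotype, those beside the threshold, those with most coding starts, and Pdha1. Others are said to be chosen after their values were seen, and some are not reported here. The regions and lists were chosen with earlier results of these data known. The alternatives were other q thresholds, equal list lengths, 100 or 600 regions, ranking by mean cover, joining within 3000 bp, regions in 1 library, a wider promoter, splits joined under 1000 bp, a replicate block and leaving out each library. Fold enrichment in regions chosen without the library measured was added after the data were seen.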

Additional observations from a re-analysis of the deposited data

Results flagged for a closer look

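Signals outside the 300 regions were found where the rule did not look, and no control library was analysed. At the start of chromosome 9, 3 merged regions were at least as wide as the narrowest of the 300, with a peak in all 5 libraries and up to 9282 bp wide. On chromosomes X and Y there were 6, of which 4 lay on X, up to 3967 bp, and 2 on Y, up to 5335 bp. On autosomes, 24 regions as wide had a peak in a single library, up to 3831 bp, and 21 of these were of WT replicate 1. Groups of 2 and 3 libraries are too small for the search for samples far from the others.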

How the results depend on the processing

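Causes of these changes were not tested unless the setting's construction shows one. At a −log10 q threshold of 5, the median width of the 300 widest regions was 2497 bp. There, 13% had a peak in all 5 libraries, against 11.4% of all regions. With equal list lengths, the median was 2821 bp, 52.0% had a peak in all 5 against 36.1% of all regions, so that the share was no longer near that of the whole, and the WT minus TPdh-/- difference in covered share of the 300 was 8.04 percentage points, against 33.3. Ranking by mean covered width gave a median of 2892 bp and 85.3% with a peak in all 5 against 30.0%, which that ranking favours. The share with a coding start was 43.0% at the threshold of 5 and 44.3% with equal list lengths, while that of all regions rose from 47.7% to 66.7% and 57.7%. The difference in peaks per region was 0 at that threshold and 0.0169 with peaks joined within 3000 bp, where its sign was reversed. The difference in covered share of independently chosen regions stayed above 0 under every setting run. With equal list lengths it fell from 31.7 to 2.90 percentage points. The difference in fold enrichment over the 300 was -0.03, from -0.169 with equal list lengths and -0.0889 at a −log10 q threshold of 5 to -0.00791 with ranking by mean covered width. It was -0.00428 with regions chosen without the library measured, a setting added after the data were seen. Leaving out each library in turn, the median width was from 2994 to 3437 bp. The difference in covered share was then from 21.9 to 52.2 percentage points in the 300 and from 23.1 to 51.6 in independently chosen regions. The difference in peaks per region was from -0.00941 to -0.00179 and in fold enrichment from -0.04 to -0.02. The share marked in every library was from 36.7% to 45.7%, against 35.2% to 40.9% of all regions. The share at a coding start was from 39.3% to 43.0%, against 47.7% to 49.9% of all regions.

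The labels do not say that replicate numbers pair the samples. With the replicate block of numbers 1 and 2, which leaves out TPdh-/- replicate 3, the difference was 41.7 percentage points in covered share, -0.0042 in peaks per region and -0.04 in fold enrichment.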
